A study of Mus musculus with 5 samples.

Results

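Small leucine-rich proteoglycans and elastic fiber genes were examined in bulk RNA-seq of prostate cancer (PCa) tissue from TripleTg mice, as fibroblast matrix genes other than collagens. The 10 genes were picked by symbol, as 5 proteoglycans (Dcn, Bgn, Lum, Fmod and Ogn) and 5 elastic fiber genes (Eln, Fbn1, Fbln1, Fbln5 and Mfap5), out of 24527 genes in the count table. All 10 passed the filter on low counts, as did 14612 genes in all. All mice carried the alleles labelled hHGFtg-hMETtg-BCAT-PBCre, which are a human HGF transgene expressed throughout the body, and a human MET transgene and a stabilized β-catenin that the Cre recombinase switches on under the probasin promoter, in prostate epithelium. Stromal cells are not the cells in which probasin drives Cre. The compared groups were 3 mice castrated at 4 months and 2 intact mice of the same genotype, all analyzed at 8 months of age, with 1 library from each animal. The castrated libraries held 28015507, 18951782 and 20492061 counts for replicates 1, 2 and 3, and the intact ones 21560355 for replicate 1 and 22853501 for replicate 2. The common dispersion that edgeR estimated among libraries of a group was 0.238.

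Small leucine-rich proteoglycans are secreted core proteins with leucine-rich repeats, most of which bind collagen fibrils and set fibril spacing and width. Many carry chondroitin, dermatan or keratan sulfate chains, and decorin also binds growth factors and receptors, MET among them. Elastic fibers consist of crosslinked elastin laid on a scaffold of fibrillin microfibrils, with fibulins and microfibril-associated proteins joining the parts. In the prostate, fibroblasts and smooth muscle cells around the glands make most of this matrix.

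The libraries differed in ways that the labels do not give, and the part of these differences in the values below was not tested. Over all tested genes, log2 CPM of castrated replicate 1 correlated at 0.922 with intact replicate 1. Its correlation was 0.91 with castrated replicate 2 and 0.885 with castrated replicate 3. Castrated replicates 2 and 3 correlated at 0.937 and the intact replicates at 0.848, so the libraries did not group by castration alone. Castrated replicates 2 and 3 held adipocyte transcripts that were scarce in the other 3 libraries. Adipoq, the fat cell hormone adiponectin, stood at 68.8 and 68.3 CPM (counts scaled to a common library size by edgeR's TMM method) there, against 0.523 in castrated replicate 1 and 0 and 0.093 in intact replicates 1 and 2. Intact replicate 2 was set apart by the prostate secretory gene Tgm4, at 1347 CPM against at most 0.419 CPM in the other 4 libraries, and its Pbsn, the probasin gene, stood at 5.21 CPM. Sbp, Pate4 and Spink1 were at 0.325 CPM or less in every library. Msmb was listed at 0 in all 5 libraries, and intact replicate 1 had Tgm4 at 0.224 and Pbsn at 0 CPM. The luminal keratin Krt8 lay between 661 and 1155 CPM in all 5 libraries. The basal keratins set the intact mice apart, with Krt5 at 28.9 and Krt14 at 14.3 CPM in intact replicate 1 against 405 and 139 CPM in intact replicate 2.

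Of the 10 genes, 4 were higher in every castrated mouse than in either intact mouse, namely Dcn, Lum, Fbln1 and Fbln5, and no gene was lower in every castrated mouse. Among all tested genes, 17.0% were apart in the higher direction and 16.1% in the lower, or 33.1% in either. With Ogn, the same 4 had an unadjusted p under 0.05 and a log2 fold change above 1, a share of 5 of 10 where 7.66% of all tested genes passed in that direction, 3.26% in the other and 10.9% in either. The median log2 fold change was 1.28 over the 10 genes and -0.03 over all tested genes. After Benjamini-Hochberg adjustment, edgeR's quasi-likelihood test called 0 of the 14612 genes (0%), these 10 included, with 1596 genes past the unadjusted threshold. limma voom also called 0 genes, whereas DESeq2 called 989 genes (6.77%), of which 703 (4.81%) were higher, and these included Dcn, Lum, Ogn, Fbln1 and Fbln5. The plot of log2 fold changes shows these 5 genes with higher estimates than the other 5, although the standard error bars of Fbln5 and Fmod overlap. Without castrated replicate 1, Fmod also passed the unadjusted threshold, as did 13.5% of all tested genes in either direction. Its log2 fold change was then 1.18 (SE 0.24).

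**Figure D1:**
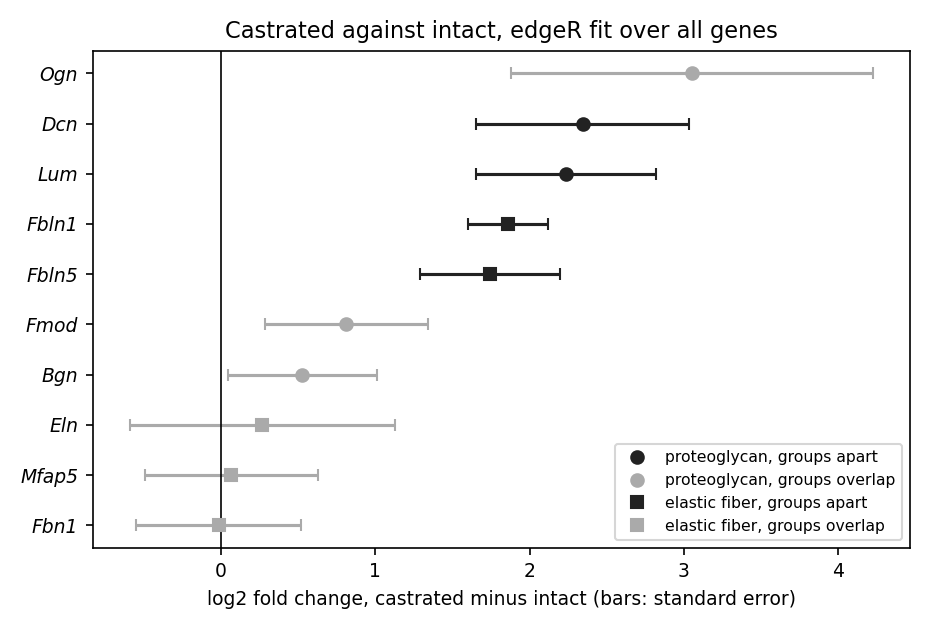
Log2 fold change of castrated over intact samples for the 10 genes, from edgeR's fit over all tested genes, with standard errors as bars. Circles are proteoglycans and squares elastic fiber genes, and dark symbols mark genes whose groups do not overlap. The upper 5 genes lie between 1.74 and 3.05 and the lower 5 between -0.02 and 0.81.

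Among the proteoglycans, Dcn, which encodes decorin, had the highest mean level in castrated samples, although Bgn exceeded it in castrated replicate 1. The gene lies at chr10:97479500-97518163 on the plus strand (mm10). Its level was 998, 2662 and 3825 CPM in castrated replicates 1, 2 and 3, and 487 and 495 CPM in the intact replicates. The intact mice were close together while the castrated mice spread 3.83-fold, and the groups did not overlap. The mean was 2495 ± 1421 CPM (SD, n = 3) in castrated and 491 ± 5.57 CPM (SD, n = 2) in intact samples, a 5.08-fold difference. On the log2 scale the fold change was 2.35 (SE 0.69), with an adjusted p of 0.296 by edgeR's quasi-likelihood test and 0.00473 by DESeq2.

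Lum encodes lumican, a keratan sulfate proteoglycan that binds collagen fibrils, and lies 47.3 kb beyond Dcn on the same strand, at chr10:97565501-97572703. Its level was 190, 440 and 666 CPM in castrated and 107 and 76.6 CPM in intact samples. The order of the castrated mice was that of Dcn, and again the groups did not overlap. Its log2 fold change was 2.23 (SE 0.58), with an adjusted p of 0.29 by edgeR's quasi-likelihood test and 0.00689 by DESeq2. Within each library, the ratio of Dcn to Lum counts per kilobase of gene length moved little, at 5.19, 5.99 and 5.68 in castrated and 4.49 and 6.40 in intact samples.

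Ogn encodes osteoglycin, also called mimecan, and lies at chr13:49608015-49624501 on the plus strand. Its level was 12.4, 114 and 143 CPM in castrated and 4.93 and 16.7 CPM in intact samples. Castrated replicate 1 thus lay between the intact mice, and the groups overlapped although the means differed 8.29-fold. The log2 fold change of 3.05 (SE 1.17) was the largest of the 10 and had the largest error, with an adjusted p of 0.328 by edgeR's quasi-likelihood test and 0.039 by DESeq2. On the opposite strand, Cenpp overlaps Ogn, and whether counting used the strand is not given in the sources used here. Cenpp had between 10 and 105 counts per library and Ogn between 110 and 2930.

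Fmod, for fibromodulin, which takes part in collagen crosslinking, lies at chr1:134037254-134048280. It was measured at 43.8, 147 and 120 CPM in castrated and 52.5 and 65.6 CPM in intact samples, so that castrated replicate 1 was the lowest of all 5 libraries. The log2 fold change of 0.81 (SE 0.53) had an adjusted p of 0.506 by edgeR's quasi-likelihood test. Bgn, for biglycan, which lies at chrX:73483601-73495936, encodes a chondroitin and dermatan sulfate proteoglycan of decorin's own class. It had 1417, 996 and 1476 CPM in castrated and 1260 and 538 CPM in intact samples. Intact replicate 1 lay within the castrated range and 2.34-fold above intact replicate 2. The log2 fold change was 0.53 (SE 0.48), with an adjusted p of 0.639 by edgeR's quasi-likelihood test.

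**Figure D2:**
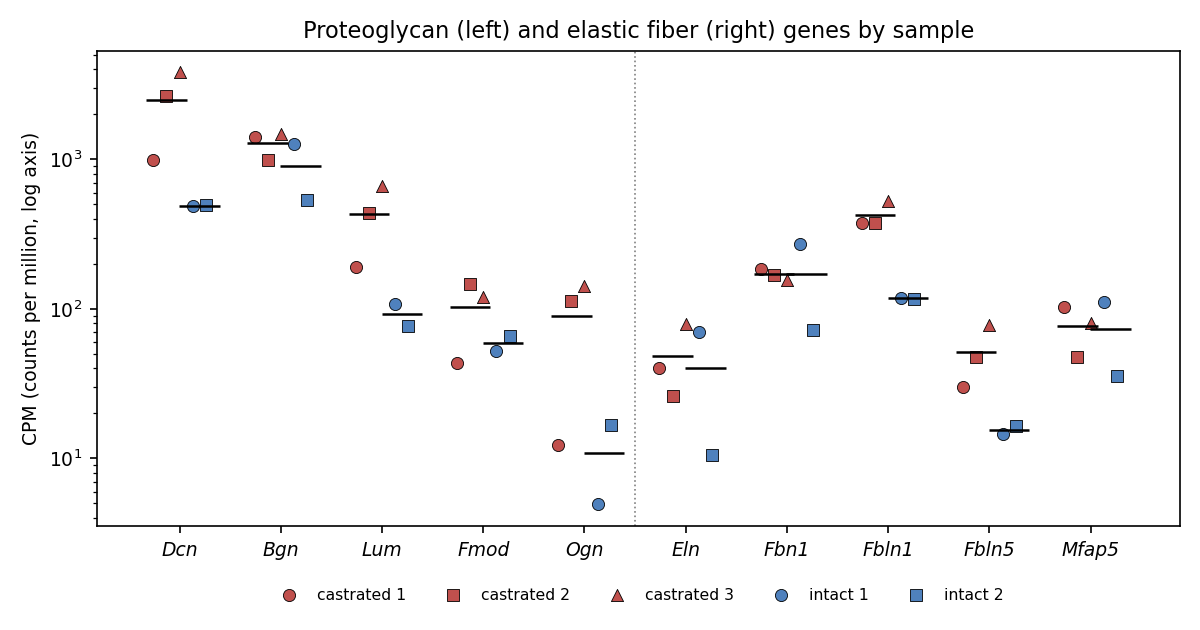
Level of each gene in each library, in CPM on a log axis, with proteoglycans left of the dotted line and elastic fiber genes right of it. Red symbols are castrated and blue symbols intact mice, the shape gives the replicate, and black lines are group means. Dcn, Lum, Fbln1 and Fbln5 have all red above all blue, and in Bgn, Eln, Fbn1 and Mfap5 the blue circle (intact replicate 1) lies far above the blue square (intact replicate 2).

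The balance between decorin and biglycan can be read within a library, where no scaling between libraries enters. Dcn per Bgn, in counts per kilobase, was 0.812, 3.08 and 2.99 in castrated and 0.446 and 1.06 in intact samples. Bgn thus exceeded Dcn in castrated replicate 1 and intact replicate 1, while Dcn exceeded Bgn about 3-fold in the castrated replicates that held adipocyte transcripts. Of the 5 proteoglycans' counts per kilobase, Dcn took 40.6%, 64.0% and 64.0% in castrated and 28.2% and 45.1% in intact samples. The share of Bgn was 50.0%, 20.8% and 21.4% in castrated and 63.3% and 42.6% in intact samples. The groups overlapped in both shares, as castrated replicate 1 lay between the intact mice in each case. Lum took between 6.28% and 11.3%, and its share was higher in every castrated than in either intact mouse. Fmod and Ogn together made up the small rest.

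**Figure D3:**
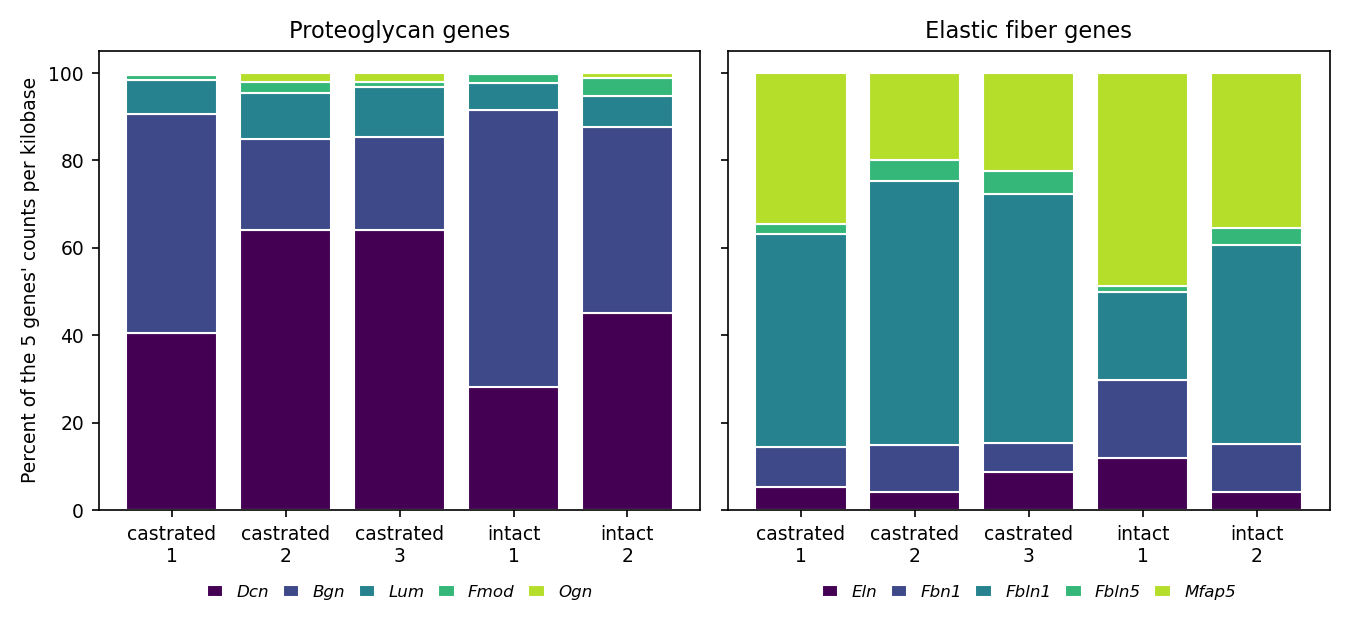
Share of each gene in the summed counts per kilobase of the 5 proteoglycans (left panel) and the 5 elastic fiber genes (right panel), in percent, with 1 bar per library. Dcn reaches 64.0% in castrated replicates 2 and 3, and Fbln1 falls to 20.0% in intact replicate 1.

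Among elastic fiber genes, Fbln1 had the difference with the smallest standard error of the 10. It encodes fibulin-1, a secreted glycoprotein of elastic fibers and basement membranes, and lies at chr15:85205949-85286294 on the plus strand. Its level was 376, 377 and 529 CPM in castrated and 119 and 117 CPM in intact samples. Each group was tight and the lowest castrated mouse stood more than 3 times above the higher intact mouse. The mean was 427 ± 88.0 CPM (SD, n = 3) in castrated and 118 ± 1.41 CPM (SD, n = 2) in intact samples. Fbln1 had a log2 fold change of 1.86 (SE 0.26) and stood at rank 30 of all tested genes by p. Its adjusted p was 0.289 by edgeR's quasi-likelihood test and 1.21e-08 by DESeq2.

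Fbln5 encodes fibulin-5, which binds elastin and cell surface integrins and is needed for elastic fiber assembly, and lies at chr12:101746565-101819119 on the minus strand. Its level was 29.8, 47.5 and 78.0 CPM in castrated and 14.6 and 16.4 CPM in intact samples. The groups did not overlap, and the castrated mice stood in the same order as for Dcn and Lum. The log2 fold change was 1.74 (SE 0.45), with an adjusted p of 0.29 by edgeR's quasi-likelihood test and 0.0143 by DESeq2.

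In Eln, Fbn1 and Mfap5 the groups overlapped, and the contrast with Fbln1 and Fbln5 was not tested. Other elastic fiber genes were mixed. Mfap2 and Mfap4 were apart between groups and are given below, whereas Fbn2, Ltbp1 and Ltbp2 overlapped, with log2 fold changes of -0.19, 0.345 and -0.18. Eln, which encodes elastin itself (chr5:134702595-134747323, minus strand), had 40.0, 26.2 and 79.7 CPM in castrated and 70.0 and 10.6 CPM in intact samples. Fbn1, for fibrillin-1 of the microfibril (chr2:125300594-125506438, minus strand), had 184, 170 and 157 CPM in castrated and 271 and 72.6 CPM in intact samples. In both, intact replicate 1 was high and intact replicate 2 the lowest library. Mfap5, whose product is a microfibril-associated glycoprotein (chr6:122513584-122529287, plus strand), had 104, 48.1 and 80.3 CPM in castrated and 112 and 35.5 CPM in intact samples. The castrated Fbn1 values lay within 1.17-fold of each other, whereas the intact mice differed 3.73-fold. The log2 fold changes were 0.27 (SE 0.86) for Eln, -0.02 (SE 0.54) for Fbn1 and 0.07 (SE 0.56) for Mfap5, with adjusted p-values of 0.906, 0.99 and 0.965 by edgeR's quasi-likelihood test. With 2 intact mice so far apart, these errors leave room for a difference in either direction.

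Within the 5 elastic fiber genes' counts per kilobase, Fbln1 took 48.6%, 60.5% and 57.1% in castrated and 20.0% and 45.4% in intact samples. Each castrated share was above both intact shares. Mfap5 took 34.5%, 19.9% and 22.3% in castrated and 48.7% and 35.5% in intact samples, so that each castrated share was below both intact shares. Fbln1 per Fbn1, in counts per kilobase, was 5.24, 5.69 and 8.65 in castrated and 1.12 and 4.12 in intact samples, without overlap. Fbln5 per Eln was 0.464, 1.13 and 0.609 in castrated and 0.129 and 0.960 in intact samples, with overlap. These comparisons do not depend on scaling between libraries and were not tested.

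The bases before the start site are shown for the 3 elastic fiber genes that RefSeq's promoter table holds, as Fbln1 and Fbln5 were apart between groups and Fbn1 was not. Of the 10 genes, 6 were matched, and Dcn, Lum, Eln and Mfap5 were not. Each run holds the 250 bases upstream of the gene start given above, in build GRCm38.p6, read 5′ to 3′ on the gene's strand. Capitals mark the GC box, searched as GGGCGG on both strands and so seen as CCGCCC where it lies on the other strand.
Fbln1, chr15:85205699-85205948, plus strand: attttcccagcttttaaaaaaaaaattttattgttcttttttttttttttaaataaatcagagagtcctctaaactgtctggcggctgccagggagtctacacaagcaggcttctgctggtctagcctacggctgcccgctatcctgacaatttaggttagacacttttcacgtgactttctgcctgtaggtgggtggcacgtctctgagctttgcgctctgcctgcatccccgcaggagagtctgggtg
Fbln5, chr12:101819120-101819369, minus strand: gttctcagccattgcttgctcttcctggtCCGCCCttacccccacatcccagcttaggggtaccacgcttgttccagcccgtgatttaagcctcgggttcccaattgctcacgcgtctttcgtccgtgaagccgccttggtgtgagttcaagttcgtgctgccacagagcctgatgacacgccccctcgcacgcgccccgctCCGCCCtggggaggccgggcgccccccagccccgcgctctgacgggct
Fbn1, chr2:125506439-125506688, minus strand: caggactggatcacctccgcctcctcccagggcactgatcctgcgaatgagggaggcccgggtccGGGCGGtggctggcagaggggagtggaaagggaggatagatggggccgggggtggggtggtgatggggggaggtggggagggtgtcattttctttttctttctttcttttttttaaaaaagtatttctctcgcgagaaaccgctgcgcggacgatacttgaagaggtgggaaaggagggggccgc
The motif occurred 0 times in the Fbln1 window, 2 times in the Fbln5 window and 1 time in the Fbn1 window, and 32.7% of 32851 promoters of this length held it. A further listed start inside Fbln1 had 1 match and a further start inside Fbln5 had 0. The windows of Fmod and Ogn also had 0, while that of Bgn had 3. GC content was 46.4%, 65.2% and 59.2% in the printed windows and 42.0% before Ogn, against a median of 52.4% over all promoters. Windows with and without the motif thus occurred both among genes that were apart between groups and among those that overlapped.

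Per kilobase of gene length, the order of mean levels in castrated samples was Dcn (1191 CPM per kilobase), Bgn (537), Lum (209), Fbln1 (111), Mfap5 (51.9), Ogn (34.6), Fmod (33.3), Fbn1 (17.3), Eln (12.7) and Fbln5 (8.44). In intact samples, Bgn came ahead of Dcn, at 372 against 234 CPM per kilobase, and Mfap5 came next at 49.5. They were followed by Lum (44.4), Fbln1 (30.7), Fmod (18.9), Fbn1 (17.5), Eln (10.6), Ogn (4.17) and Fbln5 (2.52). Dcn and Bgn held the top 2 ranks in all 5 libraries. Bgn came ahead of Dcn in castrated replicate 1 and intact replicate 1 and behind it in the other 3 libraries. Among the neighbors in the castrated order, only Bgn over Lum and Fbln1 over Mfap5 kept that order in all 3 castrated libraries. The 10 genes together took 0.347%, 0.495% and 0.716% of all counts in castrated and 0.259% and 0.136% in intact samples.

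The wider families were read from lists of the same kind. Of 11 other proteoglycan genes of this family, 8 passed the filter, and all 8 had a higher mean in castrated samples, with a median log2 fold change of 1.91 against -0.03 over all genes. At the unadjusted threshold 4 of the 8 passed, all higher, beside 7.66% of all tested genes, and 6 did not overlap between groups, all higher, beside 17.0%. Omd, among these 6, and Podnl1 passed the filter only through castrated libraries, so the filter itself favored higher genes. Neither was among the 4 past the threshold. Omd was apart by a narrow margin only, at 0.2791 CPM (8 counts) in castrated replicate 1 against 0.2789 CPM (6 counts) in intact replicate 2. Of the genes filtered out, Nyx had a lower mean in castrated samples (0.222 against 1.2 CPM). Kera and Optc had a higher one, at 0.59 CPM or less in every library. Prelp, which encodes a proteoglycan that anchors basement membranes to collagen, was the most abundant, at 124, 124 and 335 CPM in castrated and 37.5 and 63.7 CPM in intact samples. Podn, for podocan, had 103, 68.6 and 93.5 CPM in castrated and 27.5 and 20.4 CPM in intact samples, with a log2 fold change of 1.89 (SE 0.28) and an unadjusted p of 0.000878 by edgeR's quasi-likelihood test (adjusted p 0.289). The other genes past the threshold were Epyc and Ecm2, with log2 fold changes of 1.75 and 2.79.

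Several of these genes are neighbors in the genome, which allows a comparison within a cluster. On chromosome 10, Dcn, Lum, Kera and Epyc follow one another over 202.4 kb. Dcn, Lum and Epyc were all apart between groups, while Kera, a cornea proteoglycan, reached at most 0.054 CPM in any library. On chromosome 13, Ecm2, Aspn, Omd and Ogn lie within 119.7 kb. Each had a log2 fold change between 1.86 and 3.05, though Aspn at 0.0738 and Omd at 0.0705 missed an unadjusted p of 0.05 by edgeR's quasi-likelihood test. Ecm2, Aspn and, by the narrow margin given above, Omd were apart between groups, while Ogn overlapped. Over all tested genes, 17.0% were apart in the higher direction. On chromosome 1, Prelp and Fmod lie with Optc in 151.1 kb, and there Prelp was apart between groups and Fmod was not.

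Of 17 other elastic fiber genes, all of which passed the filter, 9 had a higher and 8 a lower mean in castrated samples, and the median log2 fold change was 0.35. At the unadjusted threshold 4 were higher (7.66% of all tested genes), namely Mfap2, Mfap4, Fbln7 and Emilin1, and 1 was lower (3.26%), Loxl4. Groups were apart in the higher direction for 6 genes and in the lower for 1, beside 17.0% and 16.1% of all tested genes. Mfap4, for a microfibril-associated protein that binds elastin, had 40.3, 80.9 and 124 CPM in castrated and 7.26 and 21.4 CPM in intact samples. Mfap2, for a microfibril glycoprotein of the same family as Mfap5, had 10.7, 8.69 and 14.9 CPM in castrated and 4.71 and 3.25 CPM in intact samples. Loxl4, a lysyl oxidase-like enzyme, owed its lower mean mostly to intact replicate 2, at 43.2 CPM against 9.37 CPM in intact replicate 1 and between 3.06 and 7.22 CPM in castrated samples. Lox, whose product crosslinks elastin and collagen, had 240, 158 and 144 CPM in castrated and 263 and 116 CPM in intact samples, with overlap. In 14 of the 17 genes, intact replicate 1 exceeded intact replicate 2, as in Eln, Fbn1 and Mfap5. Ltbp2, with the highest mean over the 5 samples, had 239, 186 and 266 CPM in castrated and 441 and 79.4 CPM in intact samples.

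Decorin and biglycan carry chondroitin or dermatan sulfate chains, and 20 genes of chain synthesis were examined. All 20 passed the filter, 1 of them was higher at the unadjusted threshold and 0 were lower, and 3 were apart in the higher and 2 in the lower direction. Over all tested genes the shares were 7.66% and 3.26% at the threshold, and 17.0% and 16.1% apart, so that the list stayed near or below them. The gene past the threshold was Chst12, a chondroitin sulfotransferase, at 24.1, 25.2 and 29.5 CPM in castrated and 15.3 and 6.97 CPM in intact samples. Dse, whose product converts chondroitin to dermatan sulfate, had 34.3, 57.2 and 49.6 CPM in castrated and 22.6 and 34.8 CPM in intact samples, with overlap. Xylt1, which starts the chain, had 16.7, 57.9 and 32.8 CPM in castrated and 27.8 and 6.93 CPM in intact samples, also with overlap. The median log2 fold change of the 20 was 0.35.

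Markers of stromal cells moved with these genes, and in bulk tissue more cells of a type and more RNA per cell cannot be told apart. Of 12 fibroblast markers, 7 were higher at the unadjusted threshold, beside 7.66% of all tested genes. The same 7 were also apart between groups, beside 17.0% of all tested genes in that direction, and the other 5 overlapped. Their mean log2 CPM was 6.64, 6.78 and 7.33 in castrated and 5.66 and 5.39 in intact samples. Their summed level was 3785, 2861 and 3694 CPM in castrated and 3803 and 2132 CPM in intact samples, and Col3a1 was the most abundant. Pdgfra, Dpt, Pi16, Thy1, Cd34, Clec3b and Tcf21 were higher in all castrated samples. Col1a1, Col1a2, Col3a1, Pdgfrb and Fap overlapped, and all 5 were higher in intact replicate 1 than in intact replicate 2. Col1a1 had 839, 482 and 616 CPM in castrated and 1161 and 493 CPM in intact samples.

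Relative to the mean of these 12 markers in the same library, in log2 units, Fbln1 stood at 1.92, 1.78 and 1.72 in castrated and 1.23 and 1.48 in intact samples, and it was the only one of the 10 with every castrated mouse above both intact mice, as were 1.96% of all tested genes, while 68.1% were below. Dcn stood at 3.33, 4.60 and 4.58 in castrated and 3.27 and 3.56 in intact samples, so that castrated replicates 2 and 3 were above the intact mice and castrated replicate 1 lay between them. Lum, Ogn and Fbln5 also had 2 castrated mice above both intact mice. For Bgn, Fmod, Fbn1 and Mfap5, 2 castrated mice lay below both intact mice. For Bgn this depended on the marker. Against Col1a1 alone, in counts per kilobase, Bgn was 4.1, 5.0 and 5.8 in castrated and 2.6 and 2.7 in intact samples. Every castrated mouse was then above both intact mice, as also for Dcn and Fbln1, while Fbn1 per Col1a1 overlapped. Used as a scaling of the libraries in the fit, the 12 markers put the median log2 fold change of all genes at -1.39, where it was -0.03.

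Other cell types moved as well. Of 11 adipocyte markers, 6 were higher at the unadjusted threshold (7.66% of all tested genes), namely Adipoq, Plin1, Plin4, Cidec, Retn and Cfd. These 6 passed the filter only through castrated libraries, at 0.604 CPM or less in the intact ones, so their count is a description only. The summed level of the 11 markers was 137, 833 and 768 CPM in castrated and 137 and 158 CPM in intact samples. Fabp4 was the highest in castrated replicates 2 and 3 and Pnpla2 in the other 3 libraries. Lep was listed at 0 in castrated replicate 1 and in both intact libraries, and Cfd in both intact libraries. Of 11 smooth muscle markers, 10 were higher at that threshold, with a summed level of 533, 917 and 956 CPM in castrated and 314 and 224 CPM in intact samples, and Acta2 the highest in castrated and Tagln in intact samples. None of them was at 0 in any library. Dcn, Lum, Ogn, Fmod and Fbln5 were lower in castrated replicate 1, where adipocyte transcripts were few, than in castrated replicates 2 and 3. Fbln1 was nearly the same in castrated replicates 1 and 2. Without castrated replicates 2 and 3, 1 of the 10 genes passed the unadjusted threshold, Fbln1, where 1.86% of all tested genes did, with the single castrated library assumed to vary like the others. In castrated replicate 1 alone, 5 of the 10 genes were above both intact mice, namely Dcn, Bgn, Lum, Fbln1 and Fbln5. Below both intact mice was 1 gene, Fmod. Over all genes tested in that setting, 29.4% were above and 29.7% below. The log2 fold changes of Dcn, Lum and Fbln5 were then 1.02, 1.04 and 0.94, that of Fbln1 was 1.67, and that of Ogn came down to 0.20. The part of these cell types in the results was not tested.

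**Figure D4:**
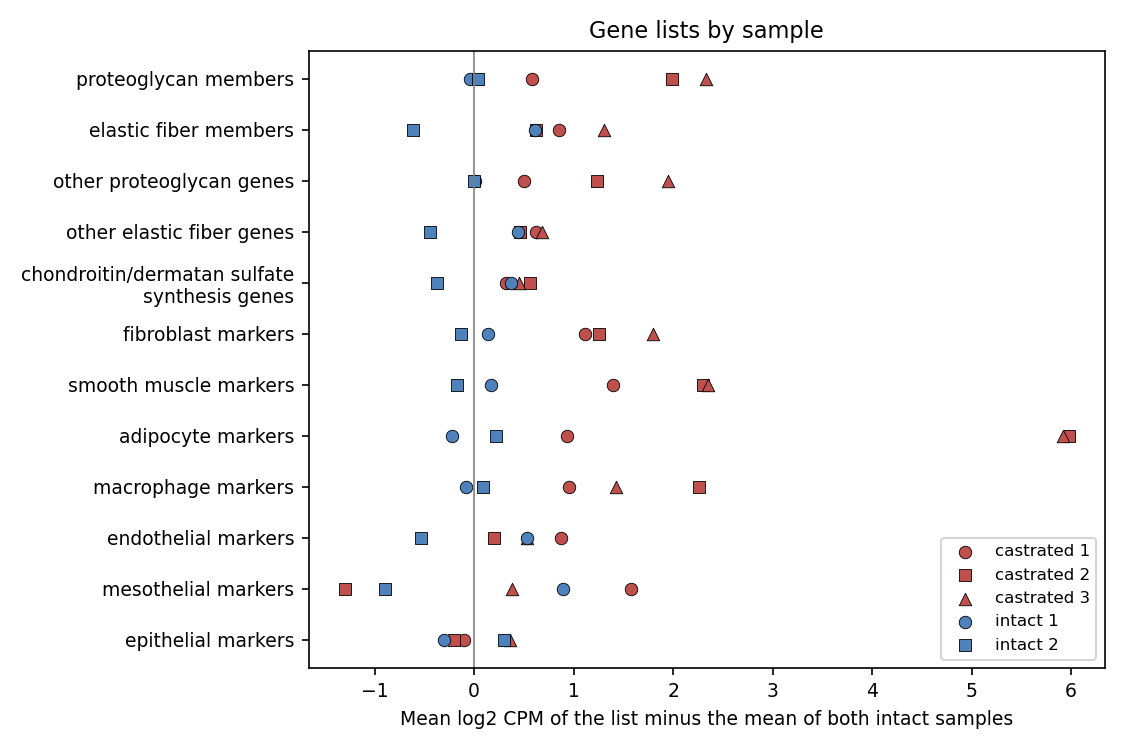
Mean log2 CPM of each gene list in each library, minus the mean of both intact libraries. Red symbols are castrated and blue symbols intact mice. Proteoglycan and fibroblast lists have all red above all blue, the 2 elastic fiber lists have castrated replicate 2 close to intact replicate 1, and adipocyte markers set castrated replicates 2 and 3 near 6.

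The intact group rested on 2 unlike mice, and each was left out in turn, with the remaining intact library assumed to vary like the castrated ones. Without intact replicate 1, where Tgm4 was nearly absent, 8 of the 10 genes were apart between groups, all higher, but with 1 intact mouse left so were 35.2% of all tested genes, and 72.0% in either direction. Bgn, Lum, Eln, Fbn1 and Fbln1 then passed the unadjusted threshold, where 17.8% of all tested genes did in either direction. Without intact replicate 2, 7 were apart, of which Fbn1 and Mfap5 in the lower direction, against 66.7% of all tested genes in either direction. Fbln1 and Fbln5 passed the threshold, where 10.3% of all tested genes did. Dcn, Lum, Ogn, Fbln1 and Fbln5 had a log2 fold change above 1 without either mouse, whereas Bgn, Eln, Fbn1 and Mfap5 were above 1 without intact replicate 1 and below 0 without intact replicate 2. Bgn went from 1.29 to -0.002 between these fits, and Fbn1 from 1.25 to -0.72.

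As a description, the 8 tested genes outside the list whose centered log2 CPM came closest to the mean profile of the 10 genes over the 5 samples included Xdh, St3gal1, Ddr2, Tns2, Dnah1, Abcc9 and Cbfa2t3, with a root mean square difference between 0.077 and 0.124. Ddr2, which encodes a collagen receptor of fibroblasts, had 62.3, 105 and 162 CPM in castrated and 51.6 and 36.7 CPM in intact samples. The mean profile itself was -0.05, 0.54 and 1.05 in castrated and -0.48 and -1.06 in intact samples. Fbln5 was the nearest of the 10 to it, with a root mean square difference of 0.304, and Ogn the farthest, at 1.36.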

How the data were processed

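Libraries of 3 castrated and 2 intact mice were grouped by their labels. The authors depleted ribosomal RNA, used Trimmomatic 0.39 for trimming, STAR 2.7.9 for alignment to mm10 and HTSeq 2.0.2 for counting, per the methods and the submitters' processing notes. The deposited values are raw counts per gene without normalization, with a gene length in kilobases, which served for levels per kilobase.

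The filter kept genes whose CPM exceeded 1 in 2 or more samples. They were fitted with edgeR 4.0.16 (quasi-likelihood F-test, TMM factors from 0.944 to 1.036) in R 4.3.3. Alternatives used DESeq2 1.42.0 and limma 3.58.1. A call needed a Benjamini-Hochberg adjusted p below 0.05, taken over all tested genes, together with a log2 fold change beyond 1 in either direction. Counts were used although the study's methods name TPM. An SE is the log2 fold change over the square root of its F value. For centered profiles, 2 was added as the prior count before log2 CPM was taken. The members and the 13 gene lists were chosen with earlier results of these data known, and patterns known from those results count as no independent evidence here. Named are all members, genes of the lists, and the 8 genes nearest in profile, except genes that are not reported here.

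Alternatives were DESeq2, limma voom, 2 other scalings, 2 other filters, scaling to fibroblast markers, the replicate number as a block, mean TPM with a pseudocount of 1 and leaving out each replicate. Leaving out castrated replicates 2 and 3 together and the older quasi-likelihood fit were added after seeing the data. Libraries of a group were distinct, with a chi-square per gene of 133 or more between them. The procedure was run on simulated data with planted changes, to check the sign and size of the estimates and the number of false calls. That check did not require planted changes to be called, so it does not show how readily so few mice yield calls. Of the mesothelial markers, Muc16 was not used here. Overlapping genes came from GENCODE vM21, which places an opposite-strand gene over Ogn, Eln and Fbn1.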

Additional observations from a re-analysis of the deposited data

How the results depend on the processing

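edgeR's quasi-likelihood test called 0 of all genes in the reported fit, with limma voom, 2 other scalings, 2 other filters, the older quasi-likelihood fit and the replicate block, whereas DESeq2 called 989, scaling to fibroblast markers 8272, and leave-one-out fits between 0 and 1. The number of the 10 genes past the unadjusted threshold was 5, with limma voom 4 (without Ogn, beside 7.58% of all genes), with the replicate block 4 (without Dcn), after scaling to fibroblast markers 2 (Fbn1 and Mfap5, both lower and none of the former 5, beside 64.9% of all genes), without castrated replicates 2 and 3 it was 1 (1.86%), and with 1 replicate left out between 2 and 6, where the share of all genes moved between 6.09% and 17.8%. The number with non-overlapping groups was 4 (33.1% of all genes in either direction), after scaling to fibroblast markers 1 (higher, as were 1.96%, with 68.1% lower), and with 1 replicate left out between 4 (37.7%) and 8 (72.0%). Dcn, Lum, Ogn, Fbln1 and Fbln5 kept their direction under every alternative tried, and DESeq2 alone moved them past the adjusted threshold. Their size did not hold: after scaling to fibroblast markers the log2 fold change was 0.86, 0.77, 1.47, 0.45 and 0.26, and with 1 replicate left out that of Ogn ranged from 2.44 to 4.14.

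Scaling to fibroblast markers turned the log2 fold change to -0.80 for Bgn, -0.62 for Fmod, -1.11 for Eln and -1.21 for Mfap5, and took that of Fbn1 to -1.28, with the median of all genes at -1.39. Fbn1 then passed the adjusted threshold in the lower direction (adjusted p 0.0493 by edgeR's quasi-likelihood test). The sign of Fbn1 also turned with limma voom (0.27), the replicate block (0.33) and without castrated replicates 2 and 3 (0.082), which turned Fmod to -0.43 and Eln to -0.033 as well. With 1 replicate left out, the log2 fold change ranged from -0.002 to 1.29 for Bgn, -0.57 to 2.22 for Eln, -0.72 to 1.25 for Fbn1 and -0.58 to 1.15 for Mfap5. Those without intact replicate 2 were -0.002, -0.57, -0.72 and -0.58, Eln was -0.28 and Fbn1 0.05 without castrated replicate 3, and Mfap5 -0.20 without castrated replicate 1. The cause was not tested.

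Replicate numbers do not pair the mice, which are different animals, and deviations of same-numbered samples correlated at 0.15 and -0.05. With the replicate block, Lum, Ogn, Fbln1 and Fbln5 (4 genes) passed the unadjusted threshold, where 6.67% of all genes did.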

Other observations

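Macrophage markers were higher in castrated samples as a list. All 10 had non-overlapping groups, where 17.0% of all tested genes were apart in that direction, and 9 passed the unadjusted threshold, beside 7.66%. Their summed level was 2994, 8870 and 3623 CPM in castrated and 1300 and 1952 CPM in intact samples, with Lyz2 the most abundant. Cd68 had 96.8, 638 and 269 CPM in castrated and 53.3 and 63.0 CPM in intact samples, with castrated replicate 2 the highest. Dcn and Lum, by contrast, were highest in castrated replicate 3.

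Of 8 endothelial markers, 1 passed the unadjusted threshold, Tek, a vessel receptor kinase, at 40.3, 20.3 and 35.7 CPM in castrated and 15.2 and 9.81 CPM in intact samples, and 3 were apart between groups, all higher. Over all tested genes 7.66% passed and 17.0% were apart in that direction. All 8 were higher in intact replicate 1 than in intact replicate 2. Of 4 mesothelial markers tested, 0 passed and 1 was apart (17.0% of all tested genes in that direction), Msln, at 151, 224 and 232 CPM in castrated and 128 and 40.2 CPM in intact samples. Of 7 epithelial markers, 0 passed and 0 were apart between groups, with a median log2 fold change of -0.25.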
